A study of Mus musculus with 8 samples.

Results

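The genes described here encode transporters that carry amino acids, small peptides and monocarboxylates such as lactate and butyrate across cell membranes. They were chosen by symbol, as all genes of the solute carrier families Slc1, Slc3, Slc6, Slc7, Slc15, Slc16, Slc36, Slc38 and Slc43 with a probe set in the deposited value table. The rule used no measured value. It found 73 of 14351 genes, read by 76 probe sets; 1 of them, Slc7a6os, is the gene on the strand opposite Slc7a6 and is not a transporter, which leaves 72 transporters. They comprise 19 genes of Slc6, 15 of Slc7, 13 of Slc16, 8 of Slc38, 7 of Slc1, 5 of Slc15, 2 each of Slc3 and Slc36, and 1 of Slc43. A further 13 symbols that fit the rule, among them Slc36a1, were not analysed here.

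Expression was read in total RNA of adult mouse colon on Affymetrix arrays, whose probe sets are groups of short DNA probes for a transcript. The 3 arrays titled WT are from wild type females, and the 3 titled STAT5b-/- carry a label of STAT5b deficiency (STAT5b relays cytokine and growth hormone signals to genes), replicate 1 from a male and the others from females. REF is a further wild type female sample, deposited as 2 columns that agreed to within 2.47e-07 of their value and counted as 1 sample (what the name means is not stated). No strain, age beyond adult, description of the STAT5b allele, treatment or pooling is given in the labels. Whether a replicate is an animal of its own is not stated either, and the p-values therefore cover only variation among these samples, possibly technical. In bulk colon, fewer cells of a type and less RNA per cell cannot be told apart.

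Colonocytes take up butyrate made by bacteria through the proton-coupled monocarboxylate transporter Slc16a1, which needs the membrane protein basigin to reach the surface. Slc3 proteins are heavy chains that join a light chain of the Slc7 family to form an amino acid exchanger, with Slc3a2 the partner of most light chains and Slc3a1 that of the cystine carrier Slc7a9. Several of these genes belong to the amino acid response, in which the transcription factor ATF4 raises genes for amino acid import and synthesis when amino acids run short or the endoplasmic reticulum is stressed. Peptides cross the brush border of the intestine through the proton-coupled transporter Slc15a1.

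Each value is a linear ratio, made by the authors, in which a probe set's WT mean is 1, so a gene's level cannot be set against another gene's, and the labelled tissue could not be checked against markers by level. Array medians over all probe sets lay between 0.948 and 1.04. Stat5b, the targeted gene, was not lower in the arrays labelled STAT5b-/-, where its ratios were 1.16, 1.17 and 1.26 against 1.08, 0.930 and 0.993 in WT, so STAT5b-/- below means the libraries with that label, and all directions are those of the labels. WT replicate 2 stood apart among the transporters: it was the highest of the 3 WT arrays in 42 of 72 transporters (58.3%), against 48.9% of all genes.

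Between the libraries labelled STAT5b-/- and WT, falls of transporter genes outnumbered rises. Of the 73 genes, 5 were higher and 17 lower (limma, Benjamini-Hochberg adjusted p under 0.05), and the groups were fully apart in all 22. That is 30.1% called, where 21.7% of all 14351 genes were called. Among all genes 13.3% were called higher and 8.42% lower, against 6.85% and 23.3% of the 73. Without STAT5b-/- replicate 2 the transporters had 4 higher and 11 lower, and without WT replicate 1 they had 7 higher and 16 lower, where all 6 arrays gave 4 and 17. Quantile normalization between arrays left 3 higher and 5 lower among the 73, and 158 higher and 239 lower among all genes, where the deposited scale gave 1910 and 1209. Non-overlapping groups were seen in 34 of the 73 genes (46.6%), against a background of 41.5%. Differences of at least 1 on the log2 scale that passed the test were 3 rises and 8 falls, which is 11 of 73 genes against 8.61% of all genes.

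By family, Slc16 had 3 of 13 genes higher and 3 lower, and Slc7 had 0 of 15 higher and 5 lower. Slc6 had 1 of 19 higher and 3 lower, and Slc1 had 0 of 7 higher and 2 lower. A single member was lower in each of Slc3, Slc15, Slc36 and Slc38, with none higher, and the 1 gene of Slc43 was not called. The share called was 46.2% in Slc16, 33.3% in Slc7, 28.6% in Slc1 and 50% in each of Slc3 and Slc36. It was 21.1% in Slc6, 20% in Slc15 and 12.5% in Slc38, where all genes gave 21.7%. Small counts moved with single arrays: Slc7 had 3 lower without STAT5b-/- replicate 2, Slc1 had 1 lower without any 1 of the STAT5b-/- arrays, and Slc6 had 3 higher without WT replicate 1 and 0 higher without WT replicate 3 or STAT5b-/- replicate 1 or 3. Slc3 and Slc38 had 0 lower without some arrays, named with Slc3a2 and Slc38a1 below, Slc15 gained 1 higher gene and Slc3 1 higher gene without WT replicate 1 and WT replicate 3. The median log2 difference was -0.42 in Slc1, -0.36 in Slc15, -0.24 in Slc36, -0.19 in Slc7, -0.17 in Slc16, -0.15 in Slc6, -0.10 in Slc43, -0.01 in Slc38 and 0.10 in Slc3. Several of these medians changed sign with 1 array left out. Without WT replicate 2 they were 0.028 in Slc15, 0.024 in Slc16, 0.14 in Slc6 and -0.097 in Slc3. The median of Slc15 was also above 0 without STAT5b-/- replicate 2 (0.033), and that of Slc38 without STAT5b-/- replicate 3 (0.011). Those of Slc1, Slc7, Slc36 and Slc43 stayed below 0 without each array in turn, with ranges of -0.59 to -0.39, -0.32 to -0.080, -0.28 to -0.20 and -0.20 to -0.028. Over the 72 transporters it was -0.23, compared with 0.0068 over all genes. That median rests on WT replicate 2: without that array it was -0.01, while the median of all genes was 0.09. Families were compared by counts and medians only, since their members are not replicates of a condition.

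**Figure D1:**
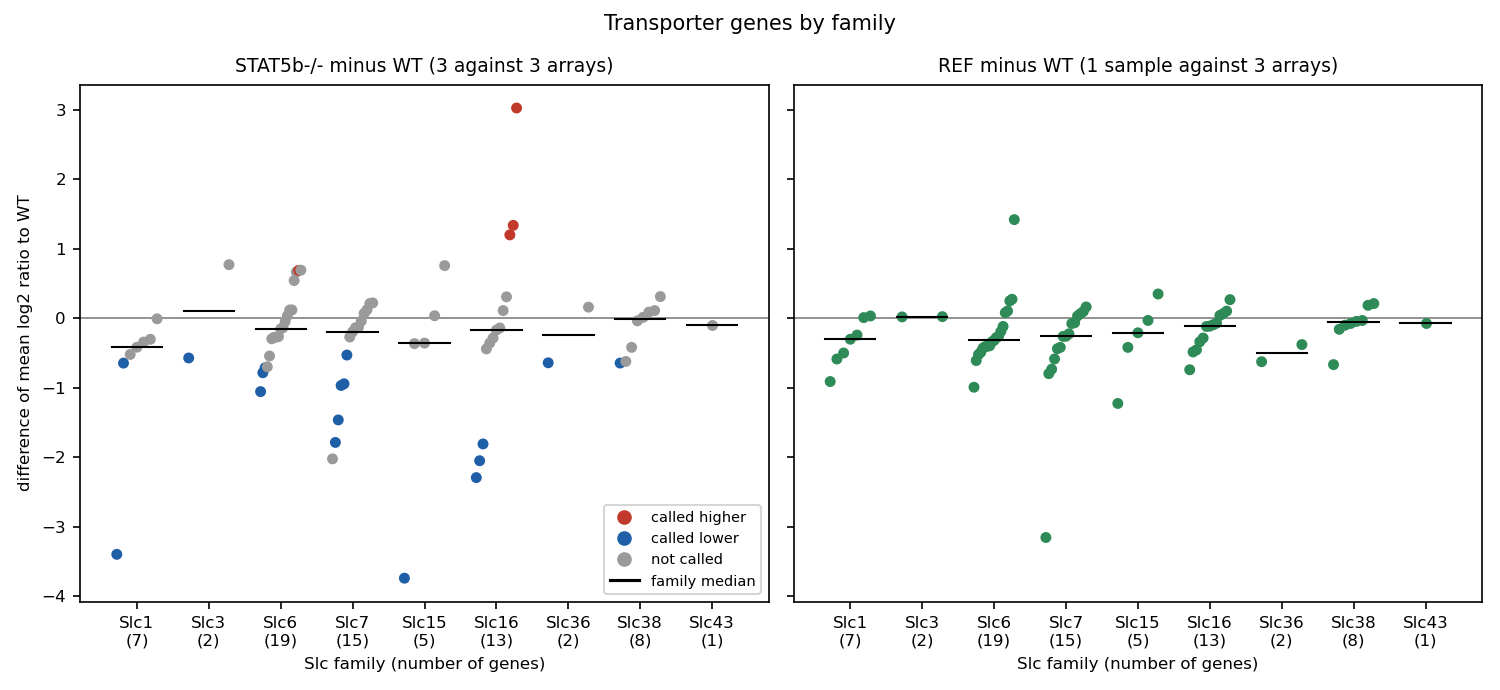
Difference of the mean log2 ratio from WT (vertical axis) for each of the 72 transporter genes, grouped by Slc family, for STAT5b-/- (left) and for the single REF sample (right). Each point is a gene and each black bar a family median; the 3 largest rises on the left are all Slc16 genes, and the 2 largest falls are Slc15a1 and Slc1a1.

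Marker genes of the cells in colon moved in the same comparison, and their part in the transporter results was not tested. Over all genes, 13.3% were called higher and 8.42% lower. Absorptive colonocyte markers were higher in 7 of 9 and lower in 1, with median log2 ratios per array of 0.83 to 0.91 in STAT5b-/-, -0.09 to 0.03 in WT and 0.18 in REF. That count was 5 higher and 0 lower without STAT5b-/- replicate 2. The log2 differences of these colonocyte markers ran from -0.64 to 5.20. Goblet cell markers were lower in 4 of 6, with medians of -1.72 to -1.12 in STAT5b-/- against -0.06 to 0.14 in WT. Macrophage markers were lower in 4 of 5 (-1.58 to -1.14 against -0.21 to 0.29). Fibroblast markers were lower in 5 of 6 (-1.10 to -0.66 against -0.17 to 0.11), and in 3 without WT replicate 3, STAT5b-/- replicate 1 or replicate 2. Mast cell markers were lower in 3 of 6, in 1 without STAT5b-/- replicate 1 or replicate 3 and in 5 without WT replicate 2. B and plasma cell markers were lower in 2 of 5 and endothelial markers in 1 of 6. T cell markers were higher in 3 of 5 and lower in 1, and enteroendocrine markers higher in 1 of 8 and lower in 3. Enteroendocrine log2 differences ran from -6.61 to 2.23. Small intestine markers were higher in 1 of 4, and in 2 without STAT5b-/- replicate 2. Crypt progenitor markers were higher in 1 of 4, a count that is 0 without any 1 of the arrays except WT replicate 2. Enteric neuron and glia markers and smooth muscle markers had 0 of 6 called each by limma.

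The monocarboxylate family Slc16 held the largest rise and changed in both directions. Slc16a9, a carnitine transporter of the family (probe set NM_025807_at), had ratios of 0.961, 1.19 and 0.851 in WT, 8.15, 8.17 and 7.85 in STAT5b-/- and 0.912 in REF. The STAT5b-/- arrays lay close together and far above every wild type array. It rose by 3.02 ± 0.15 on the log2 scale (SE of the fit; adjusted p = 0.000107), an 8.13-fold rise. Slc16a1, the butyrate and lactate carrier of colonocytes (NM_009196_at), had ratios of 0.929, 1.00 and 1.07 in WT, 2.86, 2.33 and 2.40 in STAT5b-/- and 1.05 in REF. Its log2 difference was 1.34 ± 0.14 (adjusted p = 0.00121), with REF inside the WT range. Slc16a13, a lactate transporter, had ratios of 0.983, 1.00 and 1.01 in WT, 2.52, 2.10 and 2.29 in STAT5b-/- and 1.20 in REF. It rose by 1.20 ± 0.12 (adjusted p = 0.0012), and REF lay above WT but below STAT5b-/-. The next gene to it in RefSeq gene order is Slc16a11, which had a log2 difference of 0.31 ± 0.13 and did not pass (adjusted p = 0.137).

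Slc16 also held 3 falls. Slc16a12, a creatine transporter of the family (NM_172838_at), had ratios of 1.09, 1.31 and 0.600 in WT, 0.188, 0.212 and 0.183 in STAT5b-/- and 0.905 in REF. It fell by 2.29 ± 0.29 on the log2 scale (adjusted p = 0.00255), although the WT arrays themselves spread over 0.600 to 1.31. Slc16a6, which exports ketone bodies from liver cells, had ratios of 0.935, 1.04 and 1.03 in WT, 0.257, 0.290 and 0.189 in STAT5b-/- and 0.923 in REF. It fell by 2.05 ± 0.18 in the mean of its 2 probe sets (adjusted p = 0.000771), each of which gave -2.05 by itself. Their values were near-identical in every array, so they are not separate evidence. Slc16a7, a high-affinity pyruvate and lactate transporter, had ratios of 1.09, 0.757 and 1.15 in WT, 0.287, 0.301 and 0.256 in STAT5b-/- and 0.703 in REF. It fell by 1.81 ± 0.19 (adjusted p = 0.00131). REF was below the WT arrays there, but well above all STAT5b-/- arrays.

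The remaining 7 genes of Slc16 were not called, with log2 differences from -0.44 to 0.31. Slc16a3, the lactate exporter of glycolytic cells, had 3 probe sets with near-identical values and a difference of -0.17 ± 0.28 (adjusted p = 0.719). WT replicate 1 had a ratio of 0.619 for it and the other WT arrays 1.20 and 1.18, so the WT arrays alone spanned the STAT5b-/- values of 0.743 to 0.994. The aromatic amino acid transporter Slc16a10 (-0.14 ± 0.31) was also not called. All 6 Slc16 calls held when each array was left out in turn. Under quantile normalization the calls of Slc16a12 (adjusted p = 0.0981) and Slc16a7 (adjusted p = 0.0792) ended.

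**Figure D2:**
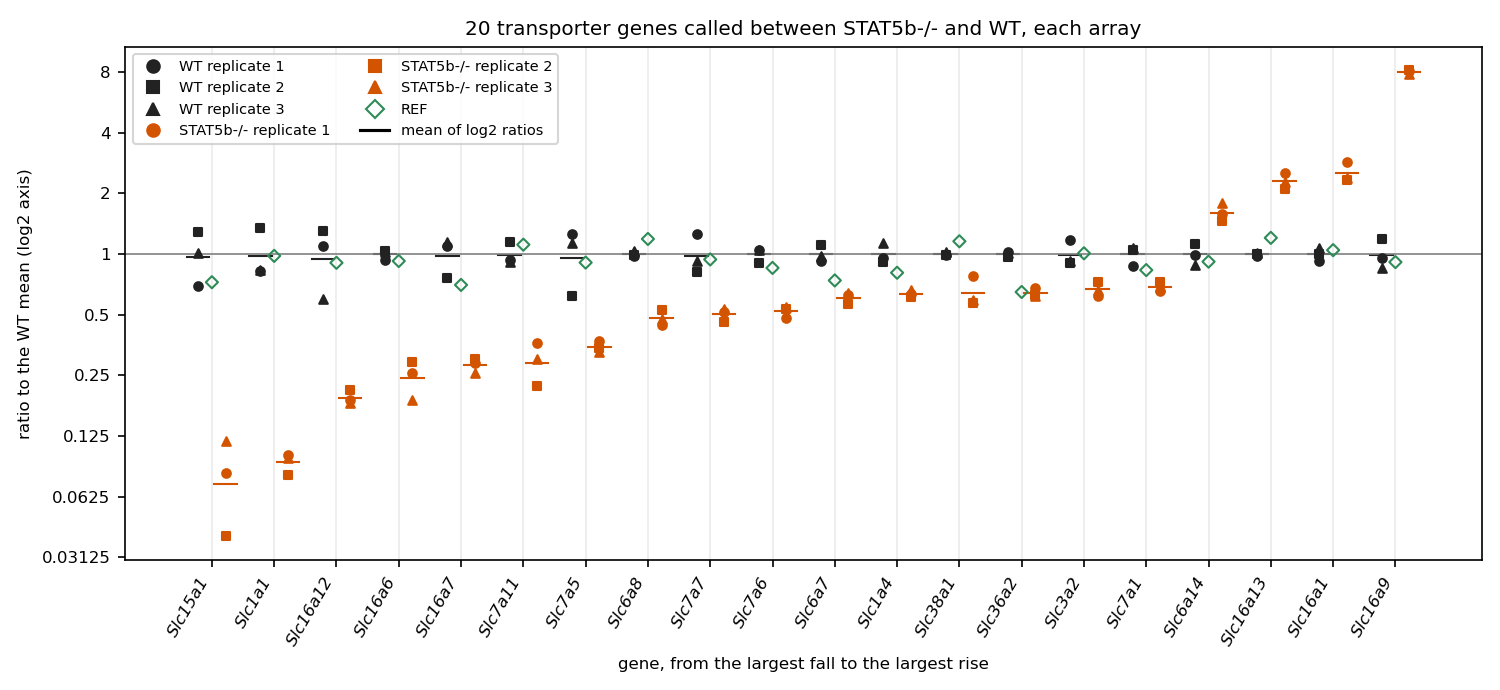
Ratio to the WT mean in each array (log2 axis) for 20 transporter genes called between STAT5b-/- and WT, ordered from the largest fall to the largest rise. Black symbols are WT, orange STAT5b-/-, the open diamond REF, and short bars mark means of log2 ratios; Slc36a2 is the 1 gene whose REF value lies among the STAT5b-/- values.

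Among the peptide transporters of Slc15, 1 of 5 genes was called (20%, near the 21.7% of all genes). Slc15a1, the brush border peptide transporter (NM_053079_at), had ratios of 0.696, 1.29 and 1.01 in WT, 0.0816, 0.0397 and 0.118 in STAT5b-/- and 0.725 in REF. The lowest wild type value was thus several times the highest STAT5b-/- value, and REF lay within the WT range. It fell by 3.74 ± 0.42 on the log2 scale (adjusted p = 0.00176), a 13.4-fold difference and the largest fall of all 72 transporters. Slc15a4, a lysosomal histidine and peptide transporter, had ratios of 1.34, 0.671 and 0.991 in WT and 1.52, 1.73 and 1.63 in STAT5b-/-. Its groups were apart, but its difference of 0.76 ± 0.25 did not pass (adjusted p = 0.0735); without WT replicate 1 it did (0.99, adjusted p = 0.0256). Slc15a2, the kidney-type peptide transporter, spread widely among WT arrays, from 0.274 to 1.38, and its difference was -0.37 ± 0.71 (adjusted p = 0.764). The peptidases that supply small peptides at the brush border and in the cytosol were called higher in 4 of 18 and lower in 2. That is 33.3% called, against 21.7% of all genes. Mep1a, a subunit of the metalloprotease meprin, rose by 1.78 ± 0.15 (adjusted p = 0.000601) and the aminopeptidase Anpep by 1.21 ± 0.20 (adjusted p = 0.00762). Dpp4, which removes N-terminal dipeptides, fell by 0.51 ± 0.13 (adjusted p = 0.0344), a call that ended without WT replicate 1 (adjusted p = 0.0881) or without STAT5b-/- replicate 1, 2 or 3 (0.0976, 0.123 and 0.0841). Ggt1, gamma-glutamyltransferase, rose by 1.81 ± 0.49 (adjusted p = 0.0398), with a ratio of 8.28 in STAT5b-/- replicate 1 and 2.47 and 2.13 in the others. That call ended without WT replicate 1 (adjusted p = 0.0854), WT replicate 2 (0.0549), WT replicate 3 (0.101) or STAT5b-/- replicate 2 (0.0681). Counts for this list were 3 higher and 0 lower without STAT5b-/- replicate 1 or 3, 2 and 0 without STAT5b-/- replicate 2 or WT replicate 1, 2 and 1 without WT replicate 3, and 3 and 1 without WT replicate 2.

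The heavy chain Slc3a2 and most of its light chains were lower. Of the 6 light chains known to pair with Slc3a2, 4 fell and 0 rose, with a median log2 difference of -0.96. Among all genes, 8.42% were called lower and 13.3% higher. Slc7a11, the cystine importer that feeds glutathione synthesis (NM_011990_at), had ratios of 0.937, 1.15 and 0.915 in WT, 0.361, 0.221 and 0.301 in STAT5b-/- and 1.11 in REF. It fell by 1.79 ± 0.21 (adjusted p = 0.00197), with REF inside the WT range. Slc7a5, which imports leucine and other large neutral amino acids (NM_011404_at), had ratios of 1.25, 0.619 and 1.13 in WT, 0.371, 0.343 and 0.328 in STAT5b-/- and 0.907 in REF. It fell by 1.46 ± 0.27 (adjusted p = 0.0102). WT replicate 2 was the low wild type array, and still lay above all STAT5b-/- arrays. Slc7a6 and Slc7a7, which export basic amino acids in exchange for neutral ones with sodium, fell by 0.94 ± 0.13 (adjusted p = 0.00359) and 0.97 ± 0.19 (adjusted p = 0.012). Slc7a7 lost its call without STAT5b-/- replicate 2 (adjusted p = 0.0559). Quantile normalization ended the calls of Slc7a5, Slc7a6 and Slc7a7, but not that of Slc7a11. With each gene's own variance alone the call of Slc7a5 ended as well. Slc7a8 had a log2 difference of 0.21 ± 0.15 (adjusted p = 0.378), and Slc7a10 of -0.27 ± 0.18 (adjusted p = 0.349).

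Slc3a2 itself had ratios of 1.17, 0.903 and 0.923 in WT, 0.618, 0.725 and 0.664 in STAT5b-/- and 1.01 in REF. The groups did not overlap, and it fell by 0.57 ± 0.15 (adjusted p = 0.0374). The call was fragile: it ended without WT replicate 1 (adjusted p = 0.0885) or 3 (0.0697), without STAT5b-/- replicate 1 (0.119), 2 (0.0802) or 3 (0.115), and on centring each array on its median (0.0593). The other heavy chain, Slc3a1, had ratios of 1.00, 0.602 and 1.40 in WT, 1.48, 1.58 and 1.80 in STAT5b-/- and 0.957 in REF. Its difference of 0.77 ± 0.30 did not pass (adjusted p = 0.115), and passed without WT replicate 3 (1.05, adjusted p = 0.0414). The light chains of Slc3a1, Slc7a9 and Slc7a13, were not called, at 0.12 ± 0.34 (adjusted p = 0.841) and 0.22 ± 0.21 (adjusted p = 0.512). The sign for Slc7a9 was not stable: it was -0.075 without WT replicate 1 and -0.13 without STAT5b-/- replicate 3.

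**Figure D3:**
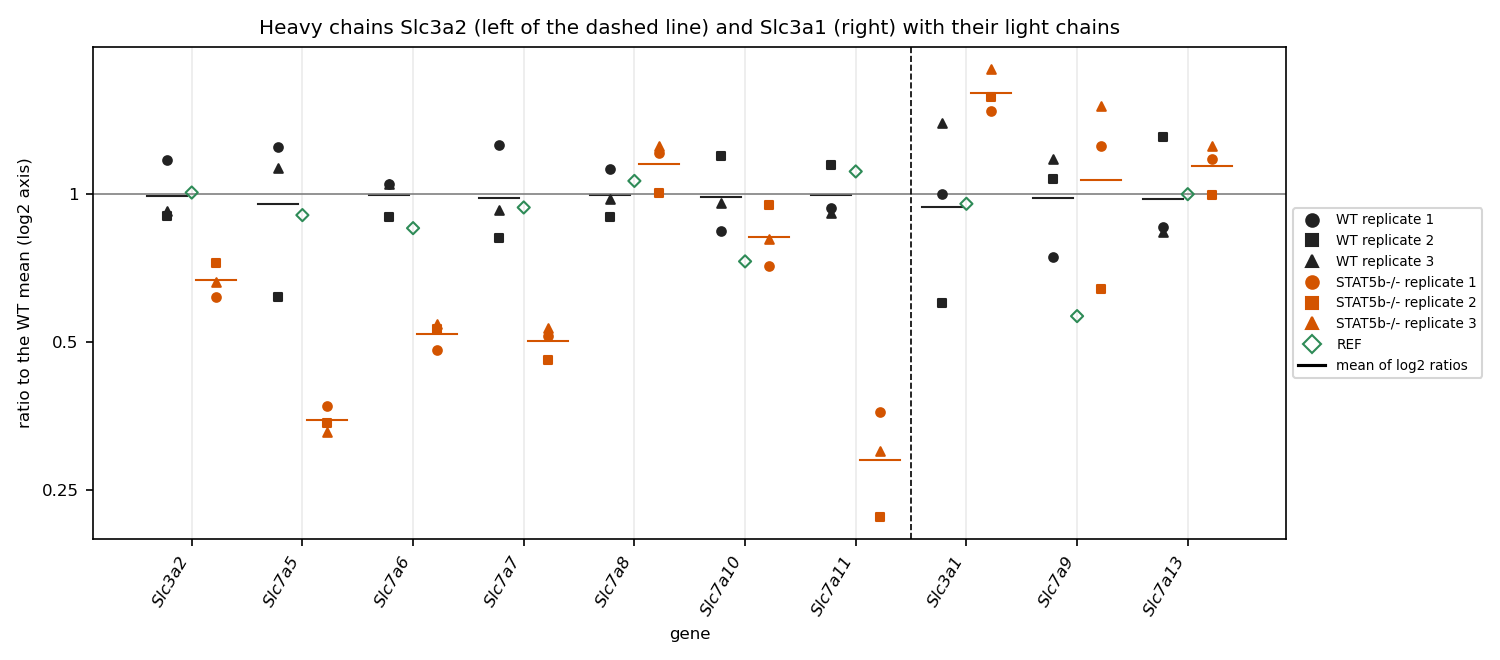
Ratio to the WT mean in each array (log2 axis) for the heavy chain Slc3a2 and its 6 light chains, left of the dashed line, and for Slc3a1 with Slc7a9 and Slc7a13, right of it. Slc3a2, Slc7a5, Slc7a6, Slc7a7 and Slc7a11 have all orange STAT5b-/- points below all black WT points.

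Stretches before or across a start site of 3 of the lower genes are shown because each holds a match to the amino acid response element. ATF4 binds this sequence with a partner, and it was searched as TGATGNAA on both strands. They come from RefSeq on build GRCm38.p6 and are written 5′ to 3′ along the gene. In Slc7a11, chr3:50443614-50443813 on the minus strand is the 200 bases before the start site; the first capitals mark a STAT-type element, searched as TTCNNNGAA, and the next 2 runs the amino acid response matches, in opposite orientations. In Slc1a4, chr11:20332704-20332813 on the minus strand runs from 100 bases before the start site to 10 after it. In Slc7a7, chr14:54417935-54418094 on the minus strand runs from 150 bases before 1 of its start sites to 10 after it. Capitals in both mark amino acid response matches. The match in Slc1a4 begins at base -4 from the start site and the last match in Slc7a7 at base -1, so both run across it.
Slc7a11: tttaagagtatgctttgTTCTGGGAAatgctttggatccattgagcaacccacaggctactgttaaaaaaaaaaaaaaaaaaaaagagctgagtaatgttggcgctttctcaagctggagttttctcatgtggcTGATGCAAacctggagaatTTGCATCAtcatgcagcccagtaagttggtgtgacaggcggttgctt
Slc1a4: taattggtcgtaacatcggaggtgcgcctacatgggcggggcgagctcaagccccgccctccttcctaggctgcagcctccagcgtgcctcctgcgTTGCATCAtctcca
Slc7a7: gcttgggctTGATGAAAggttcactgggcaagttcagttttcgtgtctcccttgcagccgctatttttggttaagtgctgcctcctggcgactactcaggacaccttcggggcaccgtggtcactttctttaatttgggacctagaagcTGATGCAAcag

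Promoter windows, which run from before a start site to past it, were found for 51 of the 73 genes. The amino acid response letters were present in 3 of 9 lower genes with a window, 0 of 4 higher genes and 1 of 38 genes not called (Slc15a5), and in 3.13% of all 11387 tested genes with a window. The STAT letters were present in 2 of the 9 lower genes (Slc7a1 and Slc7a11), 0 of 4 higher genes and 2 of 38 not called, against 8.64% of tested genes. The motifs do not overlap each other in these stretches. A match is a description of letters and not a measured binding site.

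Some other genes of Slc7 carry basic amino acids without a heavy chain. Slc7a1, the main arginine and lysine importer of most cells, had ratios of 0.874, 1.05 and 1.07 in WT, 0.657, 0.727 and 0.688 in STAT5b-/- and 0.832 in REF. It fell by 0.53 ± 0.13 (adjusted p = 0.0322), and the call ended without WT replicate 3 (adjusted p = 0.10) or STAT5b-/- replicate 1 (0.102), 2 (0.083) or 3 (0.106). Slc7a12, not grouped with these basic amino acid carriers, had the largest difference that did not pass. Its ratios were 0.390, 1.81 and 0.798 in WT, 0.103, 0.212 and 0.384 in STAT5b-/- and 0.0928 in REF. The REF sample was lower than every STAT5b-/- array. Its difference of -2.02 ± 0.65 missed the threshold (adjusted p = 0.0702) and passed without WT replicate 1 (-2.56, adjusted p = 0.037). Slc7a6os, the opposite-strand neighbour of Slc7a6, went up while Slc7a6 went down, with ratios of 1.13, 0.728 and 1.14 in WT, 1.75, 1.70 and 1.60 in STAT5b-/- and 1.36 in REF. Its rise of 0.78 ± 0.20 passed (adjusted p = 0.0325) and ended without STAT5b-/- replicate 1 (adjusted p = 0.106), 2 (0.104) or 3 (0.0867).

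In Slc1, which carries glutamate and small neutral amino acids, all 7 log2 differences were below 0 and 2 passed. Over all genes, 7083 of 14351 differences were below 0. The wild type REF sample was also low in this family, with a median difference from WT of -0.30 and 4 of 7 genes below all WT arrays. Slc1a1, the glutamate and aspartate importer of intestinal and kidney epithelium (NM_009199_at), had ratios of 0.827, 1.34 and 0.830 in WT, 0.101, 0.0800 and 0.0977 in STAT5b-/- and 0.979 in REF. The STAT5b-/- arrays lay close together far below WT, and REF lay within WT. It fell by 3.40 ± 0.22 (adjusted p = 0.000282), a 10.5-fold difference that kept its call without each array in turn and under quantile normalization. Slc1a4, a serine and alanine exchanger, fell by 0.65 ± 0.13 (adjusted p = 0.0147), from ratios of 0.955, 0.914 and 1.13 to 0.635, 0.615 and 0.660, with REF between at 0.808. Its call ended without STAT5b-/- replicate 1 (adjusted p = 0.0529), 2 (0.0662) or 3 (0.0533). Slc1a5, the glutamine exchanger, had non-overlapping groups but a difference of -0.42 ± 0.15 that did not pass (adjusted p = 0.102). The glial glutamate transporter Slc1a2 spread from 0.410 to 2.03 among WT arrays, with a difference of -0.01 ± 0.57 (adjusted p = 0.994). Its sign rested on WT replicate 2: the other WT arrays, at 0.410 and 0.556, lay below all STAT5b-/- arrays (0.616 to 0.902).

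The Slc6 family takes up amino acids, creatine, taurine and neurotransmitters with sodium, and 15 of its 19 genes were not called. Its called share of 21.1% was near the 21.7% of all genes. Slc6a8, the creatine transporter (NM_133987_at), had ratios of 0.978, 0.989 and 1.03 in WT, 0.444, 0.528 and 0.474 in STAT5b-/- and 1.19 in REF. It fell by 1.06 ± 0.12 (adjusted p = 0.00197), and REF lay on the far side of WT. Slc16a12, named above as a creatine transporter, was lower too, while Slc16a9 of that same Slc16 family was higher. Slc6a14, a broad carrier of neutral and basic amino acids in the colon, was the only Slc6 gene called higher, with ratios of 0.992, 1.12 and 0.887 in WT, 1.59, 1.45 and 1.79 in STAT5b-/- and 0.917 in REF. Its rise of 0.69 ± 0.15 (adjusted p = 0.0176) ended as a call without WT replicate 3 (adjusted p = 0.0596) or STAT5b-/- replicate 1 (0.06) or 3 (0.0746). Slc6a19 and Slc6a20a, neutral amino acid and proline carriers of the small intestinal brush border, had differences of 0.69 ± 0.25 (adjusted p = 0.0955) and 0.67 ± 0.21 (adjusted p = 0.069). For Slc6a20a REF had the highest ratio of all samples, 2.60, above the STAT5b-/- arrays at 1.66, 1.48 and 1.5. It passed without WT replicate 1 (0.86, adjusted p = 0.0302), as did the taurine transporter Slc6a6 (0.70, adjusted p = 0.033), which at 0.54 ± 0.18 had missed (adjusted p = 0.0753).

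Other carriers of Slc6 serve neurotransmitter uptake. Slc6a11, a GABA transporter, had a difference of -0.54 ± 0.21 (adjusted p = 0.121), which passed without WT replicate 2 (-0.71, adjusted p = 0.036). Slc6a7, a proline transporter of neurons, fell by 0.71 ± 0.13 (adjusted p = 0.0101), with REF at 0.740 between WT and STAT5b-/-. The serotonin transporter Slc6a4 had ratios of 0.647, 1.70 and 0.652 in WT and 0.756 to 1.02 in STAT5b-/-, a difference of 0.04 ± 0.39 (adjusted p = 0.962).

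In Slc36, Slc38 and Slc43 the genes called were Slc36a2 and Slc38a1. Slc36a2, a proton-coupled carrier of glycine and proline, had ratios of 1.02, 0.967 and 1.01 in WT and 0.679, 0.629 and 0.617 in STAT5b-/-. It fell by 0.64 ± 0.11 (adjusted p = 0.00918). The wild type REF sample, at 0.648, lay among the STAT5b-/- arrays. With REF counted in the wild type group the difference was -0.48 and no longer passed (adjusted p = 0.088). Slc38a1, a glutamine importer, fell by 0.64 ± 0.15 (adjusted p = 0.0251), from 0.987, 0.988 and 1.03 to 0.774, 0.572 and 0.590, with REF at 1.16. That call ended without WT replicate 1 (adjusted p = 0.0609) or 3 (0.0766), or STAT5b-/- replicate 2 (0.0974) or 3 (0.0982). The next genes in order, Slc38a2 beside it and then Slc38a4, were not called. Slc38a2, the glutamine carrier induced by amino acid shortage, had a difference of -0.04 ± 0.12 (adjusted p = 0.862), with the opposite sign without WT replicate 3 (0.021), and Slc38a4 of 0.11 ± 0.23. The lysosomal arginine sensor Slc38a9 had 0.01 ± 0.12. Slc43a2, a leucine-type carrier, had -0.10 ± 0.15 (adjusted p = 0.697).

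Of 9 transporters known as ATF4 targets, 5 were lower and 0 higher, with a median log2 difference of -0.53: Slc7a11, Slc7a5, Slc1a4, Slc3a2 and Slc7a1. This list was chosen with earlier results of these data known and is no independent evidence of its direction. The count was 2 without any 1 of the STAT5b-/- arrays and 3 without WT replicate 3. Calls over all genes also fell in these fits, from 3119 to 1914, 1716 and 1852 without STAT5b-/- replicate 1, 2 and 3. They fell to 2248 without WT replicate 3. Other amino acid response genes were lower in 10 of 35 and higher in 4, with a median of -0.15. That is 40% called, where 55.6% of the 9 transporters and 21.7% of all genes were called. Nupr1, a stress-induced chromatin protein, had ratios of 1.08, 1.03 and 0.888 in WT, 0.124, 0.124 and 0.121 in STAT5b-/- and 1.03 in REF. It fell by 3.02 ± 0.13 (adjusted p = 7.12e-05). Asns, asparagine synthetase, fell by 2.0 ± 0.16 (adjusted p = 0.0006), and Chac1, which degrades glutathione, by 1.81 ± 0.24 (adjusted p = 0.00325). Cth, which makes cysteine from cystathionine, rose by 2.20 ± 0.23 (adjusted p = 0.00144), from ratios of 1.25, 0.683 and 1.07 to 4.19, 4.25 and 4.98. Atf4 itself had a difference of -0.05 ± 0.15 (adjusted p = 0.851).

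The chaperones and partners of these carriers were measured as well. Bsg, basigin, the surface chaperone of Slc16a1, had ratios of 1.16, 0.971 and 0.872 in WT, 2.07, 2.17 and 2.02 in STAT5b-/- and 1.27 in REF. It rose by 1.07 ± 0.14 (adjusted p = 0.0033), beside the rise of Slc16a1. Emb, embigin, the partner of Slc16a7, had a difference of -0.04 ± 0.18 (adjusted p = 0.895), beside the fall of that carrier. Cltrn, which brings Slc6a19 to the surface in kidney, had -0.29 ± 0.42 (adjusted p = 0.687). The sodium-coupled lactate carrier Slc5a12 had -0.57 ± 0.71 (adjusted p = 0.631), with a ratio of 2.30 in WT replicate 2 against 0.308 and 0.389 in the other WT arrays.

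Genes that use the carried compounds moved in both directions. Of 19 butyrate, lactate and ketone body genes, 8 were higher and 4 lower (63.2% called, against 21.7% of all genes). Bdh1, which makes hydroxybutyrate, rose by 1.56 ± 0.14 (adjusted p = 0.000874) and Acads, the first oxidation enzyme of butyrate, by 1.54 ± 0.12 (adjusted p = 0.000587). Ffar2, a receptor for short-chain fatty acids, fell by 2.95 ± 0.21 (adjusted p = 0.0004), from ratios of 0.987, 0.938 and 1.07 to 0.0966, 0.134 and 0.168. Of 28 genes of amino acid breakdown and interconversion, 6 were higher and 3 lower (32.1% called, against 21.7% of all genes). These counts were 2 and 2 without STAT5b-/- replicate 2, and 3 and 2 without STAT5b-/- replicate 3. The alanine transaminase Gpt rose by 2.85 ± 0.17 (adjusted p = 0.000189) and the arginase Arg2 by 4.87 ± 0.22 (adjusted p = 8.83e-05). The branched-chain transaminase Bcat2 fell by 1.21 ± 0.19 (adjusted p = 0.00644) and glutamine synthetase, Glul, by 0.59 ± 0.11 (adjusted p = 0.0119), a call that Glul lost without STAT5b-/- replicate 2 (adjusted p = 0.0573). Of 19 genes by which amino acids signal to mTORC1, 4 were higher and 0 lower. That is 21.1% called, near the 21.7% of all genes. Lamtor1 rose by 1.09 ± 0.12, Castor2 by 0.85 ± 0.13, the leucine sensor Sesn2 by 1.41 ± 0.29 and Lamtor2 by 0.61 ± 0.13. Lamtor2 lost its call without STAT5b-/- replicate 1 (adjusted p = 0.0621) or 2 (0.0727).

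**Figure D4:**
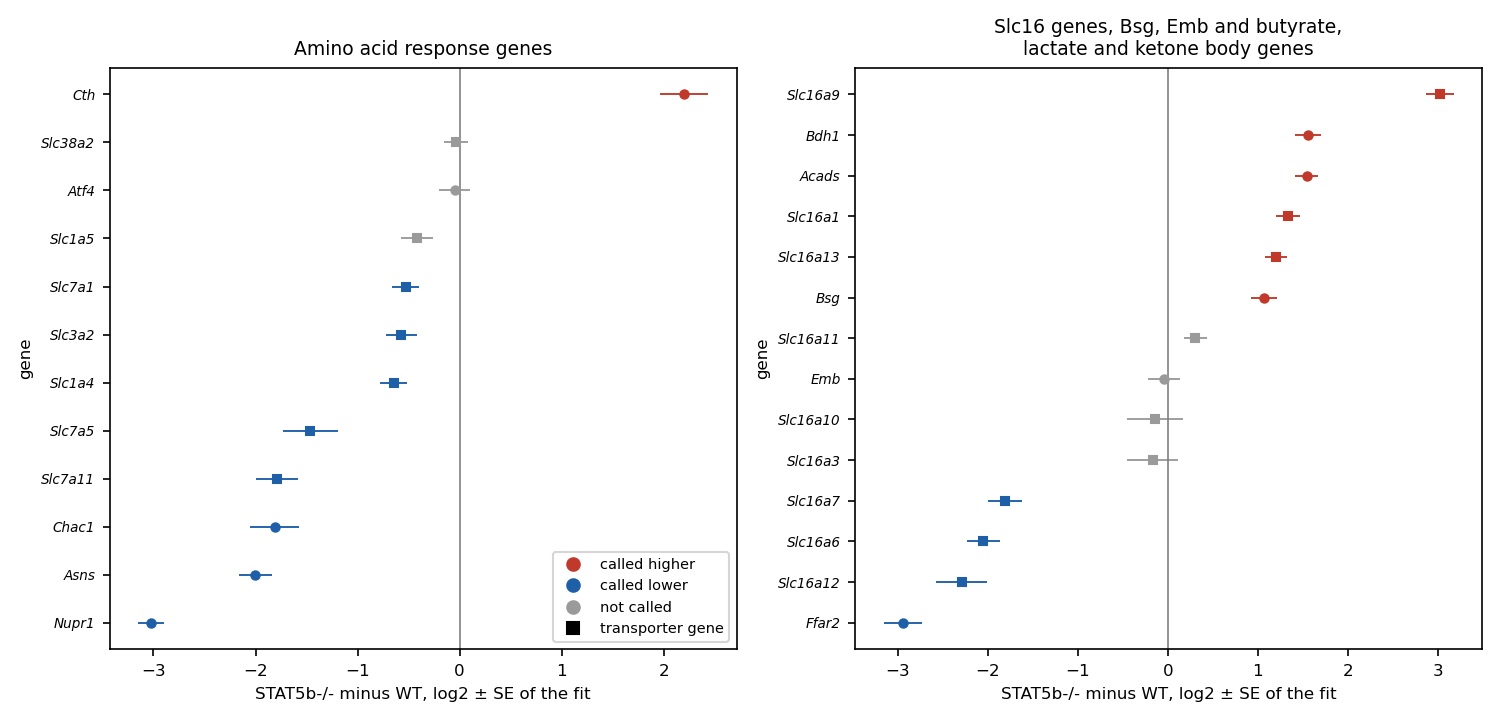
Log2 difference between STAT5b-/- and WT with the SE of the fit (horizontal axis) for the amino acid response genes (left) and the Slc16 genes, Bsg, Emb and butyrate, lactate and ketone body genes (right) that the text names. Squares are transporter genes, colours give the call; Atf4 lies near 0 on the left while Nupr1 is lowest at -3.02.

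The wild type REF sample was also set against the 3 WT arrays. No transporter passed, nor did any of the 14351 genes (limma, 0% called), while 4 of 72 transporters and 208 of all genes had an unadjusted p under 0.05. The 4 were Slc6a20a, with a log2 difference of 1.42, Slc7a12 with -3.15, Slc6a11 with -0.99 and Slc36a2 with -0.63. All had an adjusted p of 0.998 by limma. REF lay below all WT arrays in 28 of 72 transporters (38.9%) and above them in 4 (5.56%), where all genes gave 28.2% and 20.1%. The median difference was -0.22 over the transporters and -0.05 over all genes. In the 21 transporters called between STAT5b-/- and WT, REF ratios ran from 0.648 to 1.20, and in 20 of them REF lay on the wild type side of every STAT5b-/- array. It did not in 1 of these 21 and in 97 of all 3119 called genes, so this is not particular to the transporters. Both comparisons share the WT arrays.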

How the data were processed

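Colon RNA of 8 arrays was analysed from the deposited value table of 26180 probe sets. Per the submitters' processing notes the authors used RMA (background correction, array normalization and probe summary); no version is listed. The deposited values are ratios: the mean of the 3 WT arrays was 1 in every probe set to within 1.87e-07, and the lowest value is 0.01, which 19 probe sets reach but none of the 76 described here. The step that makes the ratios and the array's probe set definition are not given in the sources used here. No intensities or detection calls were used, so dim probe sets could not be filtered, and the number of arrays limits the precision.

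Probe sets were named through the RefSeq accession in their identifier, ignoring its version, with RefSeq's GRCm38.p6 genes: 15228 matched 1 symbol and 10952 none. The deposited ratios were put on the log2 scale without a pseudocount and averaged over the probe sets of a gene. Groups were compared with limma 3.58.1 (lmFit, eBayes) in R 4.3.3 over all 14351 genes with Benjamini-Hochberg adjustment and a threshold of 0.05. The fit used the 6 WT and STAT5b-/- arrays, or WT and REF as 1 sample. A fold is the log2 difference, without its sign, taken back to the linear scale, so it gives the larger group over the smaller. The script was tested on simulated data. Motifs were searched in RefSeq promoter windows with Python 3.11.15.

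The members and lists were chosen with earlier results of these data known. Genes named are all members past the threshold, transporters with a known place in the gut or the amino acid response, their partners, up to 4 genes of smallest p per related list, and the 3 members of smallest p for REF. A few genes that the rule names are not reported here. Some genes outside this rule are named for contrast, chosen after their values were seen. The alternatives tried were 16, among them another probe set rule, array scaling, a pseudocount of 0.1, other variance estimates, REF added to WT and leaving out each array.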

Additional observations from a re-analysis of the deposited data

How the results depend on the processing

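Of the 22 called members, 14 kept direction and call without each array in turn, and 8 did so under all 16 alternatives tried. These 8 were Slc15a1, Slc16a1, Slc16a6, Slc16a9, Slc16a13, Slc1a1, Slc6a8 and Slc7a11. Over all 22 members the call was lost in 53 of 352 values, with 0 reversed. All of these losses fell among the members other than those 8. Quantile normalization between arrays left 8 members called (22 as reported) and 397 genes (3119). It gives every array the same distribution of values. On the deposited scale the spreads were unlike. The SD of log2 ratios over all probe sets was 0.29 to 0.36 in WT and 0.65 to 0.74 in STAT5b-/-. The part of this in the lost calls was not tested. Leaving out 1 array gave 15 to 24 called members and 1716 to 3551 called genes, with fewer samples in each such fit. The labels give both groups the same replicate numbers, but deviations of same-numbered arrays correlated at 0.036, -0.098 and -0.186, so the numbers are not taken as a pairing. With the replicate number as a block 2039 genes and 18 members were called. Leaving out 1 array, the log2 difference of Slc38a2 ran from -0.10 to 0.021, with its sign reversed without WT replicate 3 (0.021), and that of Slc7a9 from -0.13 to 0.49, reversed without WT replicate 1 (-0.075) or STAT5b-/- replicate 3 (-0.13). Neither was called in any of these. REF against WT gave 0 calls under every alternative run for it. With 3 arrays a group, small differences cannot be detected, and an exact permutation test could not go below 0.1.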
